A study of Homo sapiens with 21 samples.

Results

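The 9 genes described here encode the MHC class I antigen presentation machinery: the regulator NLRC5, the class I heavy chains HLA-B, HLA-C and HLA-E, their light chain B2M, the immunoproteasome subunit PSMB8, the peptide transporter subunits TAP1 and TAP2, and the loading chaperone TAPBP (tapasin). They were chosen by gene symbol from the deposited expression table, where each symbol had 1 row, and they are 9 of its 60728 gene rows. All 9 passed the filter on low values and were among the 18584 genes tested.

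Class I molecules show peptides from inside the cell to cytotoxic T cells. The proteasome cuts proteins into peptides, the TAP1/TAP2 transporter pumps these into the endoplasmic reticulum, and tapasin holds an empty heavy chain and B2M next to the transporter until a peptide is loaded. NLRC5 is a transactivator that works at class I promoters, and interferon-gamma raises most genes of the pathway; neuroblastoma is known for low surface class I.

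The study silenced ARID1A and ARID1B, large subunits that hold the BAF chromatin remodelling complex together, with shRNAs delivered by lentivirus to SK-N-BE(2), an established human neuroblastoma cell line with MYCN amplification. RNA-Seq of polyadenylated RNA was made 72 h after transduction in 21 libraries, 3 for each of 7 conditions. Cells transduced with a non-silencing shRNA are labelled Control. The libraries labelled shARID1A.2 and shARID1A.4 carry an ARID1A silencing label with 2 different shRNAs, those labelled shARID1B.2 and shARID1B.3 an ARID1B silencing label, and those labelled shARID1A/B.2.3 and shARID1A/B.4.2 the label of combined silencing. All conditions come from 1 cell line, and nothing in the labels says that the 3 libraries of a condition came from separate cultures, so p-values measure only the spread between these libraries, which may be technical. The libraries held 27954334 to 41077638 reads on genes. All values are normalised read counts, the reads on a gene divided by the size factor of its library, and log2 values have 1 added before the logarithm.

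The targeted genes went against the labels in part. ARID1A was 6311 ± 191 (SD, n = 3) in Control, fell to 2146 ± 32.1 in libraries labelled shARID1A.2, 2243 ± 74.8 in shARID1A.4, 1920 ± 40.2 in shARID1B.2 and 2479 ± 28.5 in shARID1B.3, but was 5659 ± 130 in shARID1A/B.2.3 and 5440 ± 130 in shARID1A/B.4.2. ARID1B was 5796 ± 7.47 in Control and fell to 2241 ± 15.3 in libraries labelled shARID1A.2, 3100 ± 31.5 in shARID1A.4, 2599 ± 55.5 in shARID1A/B.2.3 and 1907 ± 41.3 in shARID1A/B.4.2. It stayed near Control in libraries labelled shARID1B.2, at 5004 ± 78.9, and shARID1B.3, at 6091 ± 79.2. These smaller differences were called too, at -0.16 and -0.21 on the log2 scale for ARID1A (the second -0.03, adjusted p = 0.433, when scaled to total reads) and -0.21 and 0.07 for ARID1B. Both genes were therefore clearly low under the shARID1A label, ARID1A alone under the shARID1B label, and ARID1B alone under the shARID1A/B label, and every direction given below is that of the libraries so labelled.

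**Figure D1:**
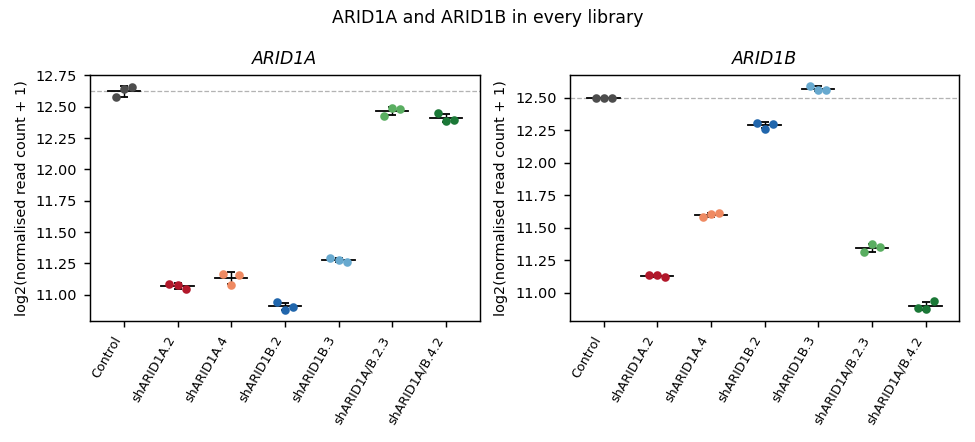
Normalised read counts of ARID1A and ARID1B in every library, on a log2 scale, with points for libraries, a line for the mean, bars for the SD (n = 3) and a dashed line for the Control mean. ARID1A is low in the 12 libraries labelled shARID1A or shARID1B, and ARID1B in the 12 labelled shARID1A or shARID1A/B.

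The cell line was checked against its markers, and the adrenergic markers PHOX2A, HAND2, GATA3, TH, DBH and MYCN were above 0 in every library, with MYCN between 77312 and 426870. Of 7 leukocyte markers, which would mark another source of class I transcripts, the B cell gene MS4A1 was at 0 in all 21 libraries and CD3E in 11, while PTPRC ranged from 57.3 to 426. Their summed level was 451 to 490 in Control and between 103 and 350 in the silenced libraries. The 4 endothelial markers summed to 42.5 to 74 in Control and to between 1.94 and 112 elsewhere, with PECAM1 at 0 in 17 libraries, and the 4 fibroblast markers COL1A1, COL3A1, PDGFRA and DCN, detected in every library, to 18231 to 18505 in Control and 4555 to 23173 elsewhere. These sums move with the conditions, and their part in the class I results was not tested. In bulk RNA, fewer cells of a kind and less RNA per cell cannot be told apart.

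Of the members, 7 lie on chromosome 6 in the MHC region. In GENCODE release 29 on GRCh38, HLA-E spans chr6:30489467-30494205 on the plus strand, and the others are on the minus strand: HLA-C at chr6:31268749-31272130, HLA-B at chr6:31269491-31357188, TAP2 at chr6:32821833-32838780, PSMB8 at chr6:32840717-32844703, TAP1 at chr6:32845209-32853978 and TAPBP at chr6:33299694-33314387. B2M is on the plus strand at chr15:44711487-44718877 and NLRC5 on the plus strand at chr16:56989485-57083531. TAP2, PSMB8 and TAP1 are neighbours. The longest HLA-B model runs over HLA-C, the gene AL669918.1 shares exons with TAP2, and PSMB8-AS1 runs against PSMB8, so reads of these pairs can be split between the genes by the counting; heavy chain genes also share near-identical stretches. AL669918.1 was at 111 ± 44.6 (SD, n = 3) in Control, against 1045 ± 60.3 for TAP2, and PSMB8-AS1 at 7.62 ± 2.33, against 181 ± 10.5 for PSMB8. PSMB8-AS1 was highest in shARID1B.2, at 20.4 ± 4.72, and lowest in shARID1A/B.4.2, at 1.13 ± 0.355, the same conditions as for PSMB8. In shARID1A/B.2.3 it was at 4.74 ± 1.63, below its Control mean, where PSMB8 was at 192 ± 1.64. The effect of such read splitting on the members was not tested.

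Promoter sequences from RefSeq (GRCh38.p14) were found for 7 of the 9 members, with none for HLA-E and NLRC5. They are shown so that the letters upstream of members at distant places can be compared, and no relation between these letters and the measured changes was tested. In the 200 bases before the start site, 4 short motifs were searched on both strands: GAANNGAA and GAANNNGAA, like the repeats that interferon regulatory factors bind, TGACG, letters of the cyclic AMP response element, and CCAAT, the Y box letters read by NF-Y. Among 35116 start sites, 12.8% held GAANNGAA, 13.9% GAANNNGAA, 18.4% TGACG and 28.0% CCAAT. All stretches are 5′ to 3′ on the gene's strand, with matches in capitals. Those of HLA-B, HLA-C and B2M hold no base of an annotated exon on that strand, and that of HLA-C lies within the HLA-B span given above.
HLA-B (chr6:31357189-31357379, minus strand): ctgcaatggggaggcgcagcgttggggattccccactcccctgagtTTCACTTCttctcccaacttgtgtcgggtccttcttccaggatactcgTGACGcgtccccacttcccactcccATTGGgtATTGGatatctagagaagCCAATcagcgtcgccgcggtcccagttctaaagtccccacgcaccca
HLA-C (chr6:31272131-31272292, minus strand): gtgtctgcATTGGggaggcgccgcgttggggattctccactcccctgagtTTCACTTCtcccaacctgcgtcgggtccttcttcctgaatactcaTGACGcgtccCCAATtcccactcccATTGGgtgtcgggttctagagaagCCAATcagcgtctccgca
B2M (chr15:44711317-44711486, plus strand): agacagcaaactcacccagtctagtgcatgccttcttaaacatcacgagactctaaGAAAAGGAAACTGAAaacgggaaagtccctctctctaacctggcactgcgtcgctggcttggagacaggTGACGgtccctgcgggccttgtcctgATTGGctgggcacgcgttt

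HLA-B, HLA-C and B2M each held an interferon-like match, then TGACG and then CCAAT in that order toward the start site, with a further CCAAT before the others in HLA-C, and 5.66% of all start sites held both TGACG and CCAAT. For 3 genes of the transporter complex, a window of 30 bases on the interferon-like match nearest the start site is shown. These windows may hold exon bases, and those of TAP1 and TAPBP lie within the gene spans given above. Pairs of matches that overlap each other run together in capitals here and in B2M.
TAP1 (chr6:32853816-32853845, minus strand, first of 2 start sites): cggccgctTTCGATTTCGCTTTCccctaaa
TAP2 (chr6:32838781-32838810, minus strand): tggctgggGAAGCGAAAGCGAAagctgccc
TAPBP (chr6:33314079-33314108, minus strand): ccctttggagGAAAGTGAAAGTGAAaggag

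All 7 members with a promoter held GAANNGAA or GAANNNGAA at 1 start site or more, against 24.0% of all start sites; TAP1 and PSMB8 have 2 start sites each, and 7 of the 9 start sites held one. TAP1 and TAPBP had no match to TGACG or CCAAT in these 200 bases, and TAP2 had TGACG but not CCAAT. A match describes letters and is not a measured binding site.

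In Control, levels per kilobase of exon (normalised read count per kilobase) put B2M far above its partners, at 5750 ± 29 (SD, n = 3). HLA-C was at 354 ± 11.7, TAPBP at 202 ± 4.83, TAP2 at 169 ± 9.77, PSMB8 at 117 ± 6.76, HLA-E at 109 ± 9.22 and HLA-B at 42.7 ± 1.03. NLRC5, at 26.4 ± 0.853, and TAP1, at 23.8 ± 2.02, were the lowest, so the subunits of the transporter were at unequal levels. PSMB8 and HLA-E, and NLRC5 and TAP1, were neighbours in this order that lay close against their spread.

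The first question was how far the class I genes moved from Control in each condition. A gene was called where limma's adjusted p, over all genes tested, was under 0.05, and the 6 comparisons share the 3 Control libraries. In libraries labelled shARID1A.2, 8 of the 9 members were called, 2 higher and 6 lower, with 76.1% of all genes tested called. In those labelled shARID1A.4, 5 were called, 4 higher and 1 lower, against 73.6% of all genes. In libraries labelled shARID1B.2, 8 were called, 6 higher and 2 lower, against 65.6%, and in those labelled shARID1B.3, 4 were called, 1 higher and 3 lower, against 63.9%. In libraries labelled shARID1A/B.2.3, 7 were called, 5 higher and 2 lower, against 69.2%, and in those labelled shARID1A/B.4.2 all 9 were called, 1 higher and 8 lower, against 71.2%. Since most genes of these cells were called, the counts by themselves set the members little apart, and the sizes are given beside them.

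With a log2 fold change over 1 in size also required, 5 of 9 members were called in libraries labelled shARID1A.2, where 24.8% of all genes were. The count was 1 in those labelled shARID1A.4 (21.4% of all genes), 1 in shARID1B.2 (12.0%), 1 in shARID1B.3 (11.8%), 1 in shARID1A/B.2.3 (16.1%) and 5 in shARID1A/B.4.2 (18.4%). For shARID1B.2 it was 2 when libraries were scaled to total reads, with HLA-C passing beside HLA-E. The median size of the log2 fold change over the members was 1.27 in libraries labelled shARID1A.2, against 0.52 over all genes, and 1.14 in shARID1A/B.4.2, against 0.44. It was 0.56 against 0.49 in shARID1A.4, 0.61 against 0.35 in shARID1B.2, 0.18 against 0.33 in shARID1B.3 and 0.56 against 0.42 in shARID1A/B.2.3. With the sign kept, the member medians were -0.55 in shARID1A.2, 0.16 in shARID1A.4, 0.61 in shARID1B.2, -0.18 in shARID1B.3, 0.37 in shARID1A/B.2.3 and -1.14 in shARID1A/B.4.2, with all-gene medians of 0.01 or 0.02.

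NLRC5, the class I transactivator, spread over the widest range but 1 among the members, with a highest condition mean 11.3 times the lowest. Its 3 Control libraries read 176, 187 and 178. Libraries labelled shARID1A.2 read 44.9, 67 and 49, and those labelled shARID1A.4 read 477, 426 and 477. With both ARID1A and ARID1B low in each, the conditions lay on opposite sides of Control and did not overlap it. The fall in shARID1A.2 was -1.75 ± 0.11 (log2 fold change ± SE; adjusted p = 6.90e-13) and the rise in shARID1A.4 was 1.34 ± 0.11 (adjusted p = 1.19e-10).

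Under the shARID1B label, with ARID1A alone low, NLRC5 read 158, 181 and 158 in shARID1B.2 and 163, 154 and 161 in shARID1B.3. Neither passed the test, with log2 fold changes of -0.13 ± 0.11 (adjusted p = 0.35) and -0.18 ± 0.11 (adjusted p = 0.189), the first of which was 0.01 when scaled to total reads. Under the shARID1A/B label, with ARID1B alone low, it read 606, 617 and 599 in shARID1A/B.2.3 and 53.7, 65.7 and 70.2 in shARID1A/B.4.2. Again the conditions lay on opposite sides of Control, at 1.75 ± 0.11 (adjusted p = 9.51e-13) and -1.51 ± 0.11 (adjusted p = 1.66e-11). In the order of the 7 means, Control, shARID1B.2 and shARID1B.3 overlapped in sequence, and so did the 2 lowest, shARID1A/B.4.2 and shARID1A.2.

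TAP2, a subunit of the peptide transporter, followed the order of NLRC5 at its ends. It read 1010, 1010 and 1114 in Control, 326, 380 and 331 in shARID1A.2 and 1732, 1818 and 1689 in shARID1A.4. It read 744, 734 and 734 in shARID1B.2 and 914, 878 and 973 in shARID1B.3, and then 1913, 1973 and 1925 in shARID1A/B.2.3 and 363, 333 and 343 in shARID1A/B.4.2. No silenced condition overlapped Control. TAP2 was lower in shARID1A.2 (log2 fold change -1.60 ± 0.05, adjusted p = 1.09e-18) and in shARID1A/B.4.2 (-1.59 ± 0.05, adjusted p = 1.70e-18), and these conditions, at 346 ± 30 and 346 ± 15.1 (SD, n = 3), overlapped each other. It rose by 0.74 ± 0.05 in shARID1A.4 (adjusted p = 5.71e-12) and by 0.89 ± 0.05 in shARID1A/B.2.3 (adjusted p = 1.95e-13). Under the shARID1B label it was lower in both conditions, by -0.50 ± 0.05 in shARID1B.2 (adjusted p = 1.28e-08) and by -0.18 ± 0.05 in shARID1B.3 (adjusted p = 0.00538), the latter lost without Control replicate 3 (-0.13, adjusted p = 0.051) and with scaling to the upper quartile (-0.11, adjusted p = 0.0911).

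TAP1, the other transporter subunit, did not go with TAP2 in several conditions. It read 67, 77.2 and 66.8 in Control, 59.8, 61.8 and 53.5 in shARID1A.2 and 80.6, 82 and 72.8 in shARID1A.4, and neither difference passed the test (log2 fold changes of -0.26 ± 0.20, adjusted p = 0.227, and 0.16 ± 0.20, adjusted p = 0.479). Under the shARID1B label the conditions parted: 98.9, 123 and 124 in shARID1B.2, a rise of 0.70 ± 0.20 (adjusted p = 0.00307), and 44.8, 21.9 and 29.4 in shARID1B.3, a difference of -1.17 ± 0.20 (adjusted p = 1.36e-05) that was -0.93 without shARID1B.3 replicate 2, where no member passed the log2 fold change over 1. TAP1 is a gene of few reads here, and the 3 shARID1B.3 libraries had the widest spread on the log2 scale among its conditions, with an SD of 0.50. In libraries labelled shARID1A/B.2.3 it read 107, 76.1 and 92.4, which overlapped Control (0.37 ± 0.20, adjusted p = 0.0971), and in shARID1A/B.4.2 it read 32.8, 22.4 and 26.2, lower by -1.35 ± 0.20 (adjusted p = 1.26e-06). The difference in shARID1A/B.2.3 passed in edgeR (0.41, adjusted p = 0.0399) and without replicate 2 of that condition (0.50, adjusted p = 0.0464).

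TAPBP, the chaperone that bridges transporter and heavy chain, was higher than Control in 5 of the 6 silenced conditions. It read 861, 856 and 824 in Control, and the 15 libraries of those 5 conditions lay between 974 and 1572, all above the Control range. The log2 fold changes were 0.28 ± 0.04 in shARID1A.2 (adjusted p = 3.66e-06), 0.87 ± 0.04 in shARID1A.4 (adjusted p = 5.86e-15), 0.76 ± 0.04 in shARID1B.2 (adjusted p = 1.40e-13), 0.31 ± 0.04 in shARID1B.3 (adjusted p = 1.86e-06) and 0.60 ± 0.04 in shARID1A/B.2.3 (adjusted p = 9.31e-12). In libraries labelled shARID1A/B.4.2 it read 547, 533 and 545 and was lower, at -0.64 ± 0.04 (adjusted p = 2.64e-12). Only shARID1B.3 and shARID1A.2, neighbours in the order, overlapped.

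PSMB8, the interferon-inducible subunit that replaces PSMB5 in the immunoproteasome, had the widest range of the members, with a highest condition mean 12.8 times the lowest. It read 180, 171 and 192 in Control, 54.8, 49.4 and 30.1 in shARID1A.2 and 20, 14.7 and 27.2 in shARID1A/B.4.2. Both of these lay below every other library. PSMB8 was lower by -2.03 ± 0.17 in shARID1A.2 (adjusted p = 1.05e-10) and by -3.11 ± 0.17 in shARID1A/B.4.2 (adjusted p = 3.26e-14). It was higher in shARID1B.2, at 268, 254 and 269 (0.54 ± 0.17, adjusted p = 0.00818). It read 161, 156 and 147 in shARID1A.4, 140, 140 and 146 in shARID1B.3 and 191, 194 and 191 in shARID1A/B.2.3, none of which passed the test (adjusted p = 0.243, 0.0836 and 0.674), although the first 2 lay below the Control range and edgeR called shARID1B.3 lower (-0.32, adjusted p = 0.0146). DESeq2 (-0.35, adjusted p = 0.0154) and a fit of the 2 conditions alone (-0.35, adjusted p = 0.00714) also called shARID1B.3 lower. Such a fit called shARID1A.4 lower too (-0.23, adjusted p = 0.0473).

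B2M, the light chain that every class I molecule needs, was lower than Control in all 6 silenced conditions, and no library overlapped Control. Control read 13754, 13636 and 13633. The lowest were shARID1A.2, at 5651, 5731 and 5633, and shARID1A/B.4.2, at 6006, 6381 and 6185. The log2 fold changes were -1.27 ± 0.03 (adjusted p = 3.82e-22) and -1.14 ± 0.03 (adjusted p = 4.68e-21), falls of 2.41-fold and 2.21-fold. The other conditions lay between these and Control in a row without overlap: shARID1A.4 at 8388 ± 352 (SD, n = 3; -0.71 ± 0.03, adjusted p = 5.75e-17), shARID1B.2 at 9021 ± 101 (-0.60 ± 0.03, adjusted p = 3.38e-15), shARID1A/B.2.3 at 9266 ± 113 (-0.56 ± 0.03, adjusted p = 7.81e-15) and shARID1B.3 at 11534 ± 497 (-0.25 ± 0.03, adjusted p = 6.10e-08).

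HLA-E, the heavy chain that natural killer cells read through NKG2A, moved against B2M. It read 311, 273 and 267 in Control, 760, 812 and 755 in shARID1A.2 and 659, 662 and 704 in shARID1B.2. These rises were 1.45 ± 0.06 (adjusted p = 1.42e-16) and 1.25 ± 0.06 (adjusted p = 6.35e-15), or 2.73-fold and 2.38-fold. Libraries labelled shARID1A/B.4.2 read 425, 430 and 433, a rise of 0.60 ± 0.06 (adjusted p = 5.47e-09). In shARID1A.4, at 298, 331 and 290 (0.11 ± 0.06, adjusted p = 0.112), and in shARID1B.3, at 270, 255 and 273 (-0.09 ± 0.06, adjusted p = 0.205), it overlapped Control and did not pass the test. For shARID1A.4 it passed with scaling to the upper quartile (0.19, adjusted p = 0.00776) and without Control replicate 1 (0.18, adjusted p = 0.0143). It also overlapped Control in shARID1A/B.2.3, at 323, 304 and 326, where the call (0.17 ± 0.06, adjusted p = 0.022) was lost in DESeq2's test (adjusted p = 0.0836), in a fit of the 2 conditions alone (adjusted p = 0.0778) and without Control replicate 2 or 3 or replicate 1 or 3 of the condition (adjusted p from 0.0609 to 0.117).

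HLA-C and HLA-B, classical heavy chains that present peptide to T cells, were both highest in shARID1B.2 and both lowest in shARID1A/B.4.2. HLA-C read 545, 570 and 534 in Control, 992, 1037 and 1055 in shARID1B.2 and 384, 380 and 410 in shARID1A/B.4.2, changes of 0.90 ± 0.06 (adjusted p = 5.48e-13) and -0.49 ± 0.06 (adjusted p = 3.34e-08). It was higher in shARID1A.4, at 769, 828 and 841 (0.56 ± 0.06, adjusted p = 2.39e-09), and in shARID1A/B.2.3, at 876, 774 and 878 (0.61 ± 0.06, adjusted p = 5.96e-10), 2 conditions that overlapped each other. In shARID1B.3 it read 545, 536 and 489, which overlapped Control (-0.07 ± 0.06, adjusted p = 0.272). Its small difference in shARID1A.2, at 507, 495 and 463 (-0.17 ± 0.06, adjusted p = 0.00892), was 0.00 when libraries were scaled to total reads, and the call was also lost with scaling to the upper quartile (adjusted p = 0.0567) and without shARID1A.2 replicate 3 (adjusted p = 0.0586).

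HLA-B was a gene of few reads: 69.3, 66 and 67.8 in Control, 53.2, 46.4 and 39 in shARID1A.2 and 98, 99.6 and 115 in shARID1B.2. It was lower in shARID1A.2 (-0.55 ± 0.15, adjusted p = 0.00203) and higher in shARID1B.2 (0.61 ± 0.15, adjusted p = 0.00108). Unlike HLA-C it was lower in shARID1A/B.2.3 as well, at 42.5, 47.9 and 49.6 (-0.53 ± 0.15, adjusted p = 0.00336), and it was lower in shARID1A/B.4.2, at 43.7, 32.4 and 40.3 (-0.80 ± 0.15, adjusted p = 5.07e-05). It read 58.3, 59.5 and 47.9 in shARID1A.4 (-0.30 ± 0.15, adjusted p = 0.0822) and 71.7, 81.7 and 66.5 in shARID1B.3 (0.11 ± 0.15, adjusted p = 0.554). The 4 lowest conditions overlapped in sequence and have no settled order.

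**Figure D2:**
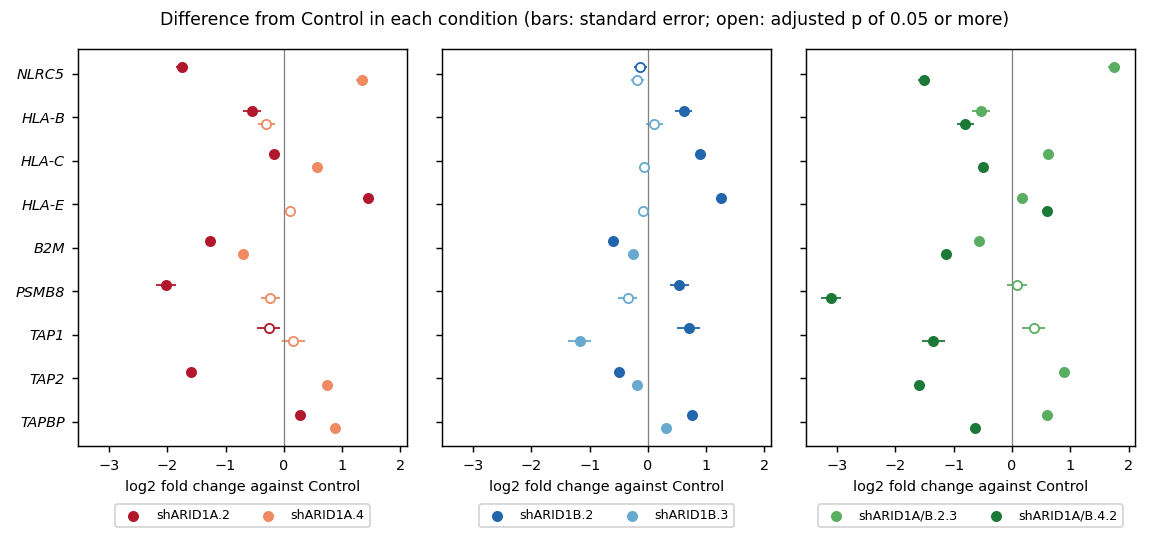
Log2 fold change against Control of the 9 members in each silenced condition, with bars for the standard error and open points where the adjusted p was 0.05 or more. PSMB8 is lowest, at -3.11 in shARID1A/B.4.2 and -2.03 in shARID1A.2, and NLRC5 takes opposite signs within the shARID1A and shARID1A/B labels.

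Next, the 2 conditions that share a label were set against each other in the same fit. Between shARID1A.2 and shARID1A.4, where ARID1A differed little (-0.06 ± 0.03, adjusted p = 0.0495) and ARID1B was lower in the first (-0.47 ± 0.02, adjusted p = 2.03e-15), 7 of the 9 members were called, with 75.8% of all genes. The differences, first minus second, were -3.10 ± 0.11 for NLRC5 (adjusted p = 6.16e-18), -2.34 ± 0.05 for TAP2 (adjusted p = 4.54e-22), -1.81 ± 0.17 for PSMB8 (adjusted p = 9.14e-10) and 1.34 ± 0.06 for HLA-E (adjusted p = 6.53e-16). HLA-B (-0.26 ± 0.15, adjusted p = 0.126) and TAP1 (-0.42 ± 0.20, adjusted p = 0.0553) did not pass the test. The difference in TAP1 passed under 5 alternatives, with adjusted p from 0.0169 in a fit of the 2 conditions alone to 0.0464 with a pseudocount of 5, edgeR among them (adjusted p = 0.0365).

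Between shARID1B.2 and shARID1B.3, where ARID1A (-0.37 ± 0.03, adjusted p = 3.31e-11) and ARID1B (-0.28 ± 0.02, adjusted p = 6.49e-11) were both lower in the first, 8 members were called, 6 of them higher in the first, with 66.0% of all genes called. TAP1 differed by 1.87 ± 0.20 (adjusted p = 7.29e-09), HLA-E by 1.34 ± 0.06 (adjusted p = 1.15e-15), HLA-C by 0.97 ± 0.06 (adjusted p = 9.38e-14) and PSMB8 by 0.89 ± 0.17 (adjusted p = 7.49e-05). NLRC5 showed 0.05 ± 0.11 (adjusted p = 0.721). Here heavy chains, TAP1 and PSMB8 differed between conditions in which the NLRC5 transcript overlapped. What part NLRC5 had in these differences was not tested.

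Between shARID1A/B.2.3 and shARID1A/B.4.2, 8 members were called, 7 of them higher in the first, with 74.9% of all genes called. NLRC5 differed by 3.25 ± 0.11 (adjusted p = 2.60e-18), PSMB8 by 3.20 ± 0.17 (adjusted p = 1.47e-14), TAP2 by 2.48 ± 0.05 (adjusted p = 1.73e-22), TAP1 by 1.73 ± 0.20 (adjusted p = 2.18e-08), TAPBP by 1.25 ± 0.04 (adjusted p = 3.44e-18) and HLA-C by 1.10 ± 0.06 (adjusted p = 5.15e-15). HLA-E went the other way, at -0.43 ± 0.06 (adjusted p = 9.72e-07), and HLA-B did not pass the test (0.27 ± 0.15, adjusted p = 0.113). The median size of the difference over the members was 1.25, against 0.51 over all genes.

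Across the 21 libraries, Pearson's r of the log2 values was positive for 32 of the 36 pairs of members, and the 4 negative pairs all held HLA-E. These are descriptions: libraries of a condition are not independent points, and all share the size-factor scaling. NLRC5 and TAP2 had r = 0.98, HLA-C and TAPBP 0.87, HLA-C and TAP1 0.85, and HLA-C and PSMB8 0.81. NLRC5 had 0.73 with PSMB8, 0.72 with HLA-C and 0.16 with HLA-B. HLA-E had -0.68 with B2M and -0.67 with TAP2. TAP1 and TAP2 had 0.50.

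**Figure D3:**
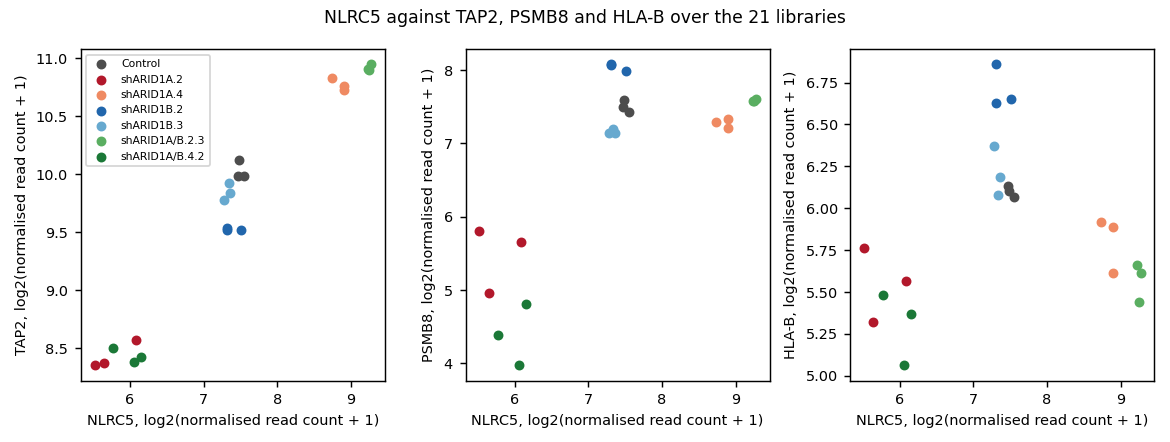
Log2 normalised read counts of TAP2, PSMB8 and HLA-B against NLRC5, with 1 point per library coloured by condition. TAP2 is lowest in the 6 libraries of lowest NLRC5 and highest in the 6 of highest NLRC5. Between these ends TAP2 does not rise throughout with NLRC5. In shARID1B.2 the mean read counts are 165 for NLRC5 and 737 for TAP2, against 160 and 922 in shARID1B.3. PSMB8 is low in the 6 libraries of lowest NLRC5 and highest in shARID1B.2, and HLA-B is low at both ends of NLRC5.

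Among 13675 tested genes with a mean value of 50 or more, the genes whose pattern over the 21 libraries was most like each member were mostly outside the pathway. For NLRC5 they were TAX1BP1 (r = 0.981), ERICD (0.980) and YOD1 (0.979), for TAP2 ASS1 (0.992), ASAH1 (0.990) and ATP6V0E1 (0.988), and for B2M RANBP1 (0.988), DNMT1 (0.983) and WIPF1 (0.982). PSMB8 was most like CLCN4 (0.985), HLA-E CDO1 (0.984), HLA-C TESK1 (0.967), TAPBP ANKRD34A (0.965), TAP1 NKD1 (0.942) and HLA-B CBWD2 (0.929). A high r can be common where libraries fall in only 7 conditions, and how common it is among these genes was not tested.

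The other genes of the pathway were read from 6 lists. Over all genes tested, 31.6% to 37.9% were called higher and 32.0% to 38.2% lower in a comparison with Control, and the counts below stand beside these shares. Of 5 other class I heavy chain genes, HLA-G was too low to test. The non-classical HLA-F and the NKG2D ligands MICA and MICB were each called higher in shARID1A.2, shARID1B.2 and shARID1A/B.4.2, the conditions in which HLA-E had its larger rises, and MICA and MICB in shARID1B.3 as well. HLA-F went from 13.1 in Control to 46.2 in shARID1A.2 and 70.2 in shARID1B.2, and MICA from 0.343 to 6.78 and 19, both at the low end of what was counted.

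Of 6 peptide trimming and loading genes, all tested, 5 were called lower in shARID1A.2 and 5 in shARID1A/B.4.2, with medians over the list of -0.58 and -0.43. Of all genes tested, 38.2% and 36.1% were called lower in these comparisons. In shARID1A.4 it was 1 higher and 2 lower, in shARID1B.2 2 and 3, in shARID1B.3 3 and 3, and in shARID1A/B.2.3 0 and 3. ERAP1, which trims peptides in the endoplasmic reticulum, went from 985 in Control to 232 in shARID1A/B.4.2 (-2.08) and to 1361 in shARID1B.2 (0.47). CALR, the chaperone calreticulin, was lower in all 6 conditions, by 0.13 to 0.91 on the log2 scale.

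Of 7 proteasome genes, 6 were tested, and PSMB9, another immunoproteasome subunit, was too low, with a mean of 5.24 in Control, 0.963 in shARID1A.2 and 0.617 in shARID1A/B.4.2. Medians over the list lay between -0.19 and 0.17, and log2 fold changes of the constitutive subunits PSMB5, PSMB6 and PSMB7 lay between -0.42 and 0.39. PSMB7 was called higher in all 6 conditions, by 0.09 to 0.35. PSMB5 was 6954 in Control, 6137 in shARID1A.2 (-0.18) and 7228 in shARID1A/B.4.2 (0.06, not called). PSMB10 was called lower in shARID1A.2 (-0.53), shARID1A/B.4.2 (-0.41) and shARID1B.2 (-0.26). PSME1, an activator subunit, was called lower in 5 conditions, from -0.60 in shARID1A/B.4.2 and -0.31 in shARID1B.3 to -0.10 in shARID1A.2, and higher in shARID1B.2 (0.17).

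Of 12 class I transcription regulators, 11 were tested, and CIITA was too low. The called genes split, 5 higher and 5 lower in shARID1A.2, 3 and 7 in shARID1A.4, 6 and 2 in shARID1B.2, 5 and 4 in shARID1B.3, 3 and 6 in shARID1A/B.2.3, and 3 and 5 in shARID1A/B.4.2. NFKB1, an NF-kappaB subunit, was at 1120 in Control, 403 in shARID1A.2 (-1.47) and 311 in shARID1A/B.4.2 (-1.85), and IRF2 at 818, 350 (-1.22) and 237 (-1.79). RFXANK, part of the factor that binds the X box, was lower where NLRC5 was higher, at 1122 in Control, 575 in shARID1A.4 (-0.97) and 458 in shARID1A/B.2.3 (-1.29). RFXAP was called higher in all 6 conditions, by 0.23 to 0.88.

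Of 7 interferon-gamma signalling genes, all tested, between 3 and 6 were called lower in each condition and between 0 and 3 higher, where 63.9% to 76.1% of all genes were called in either direction. JAK1, a kinase of the receptor, went from 3743 in Control to 1193 in shARID1A.2 (-1.65) and 1085 in shARID1A/B.4.2 (-1.79), while its changes elsewhere were -0.53 or smaller in size. JAK2, another kinase of the receptor, was called higher in shARID1A.2 (0.20), shARID1A/B.4.2 (0.41) and shARID1A/B.2.3 (0.40). It was called lower in shARID1A.4 (-0.29) and shARID1B.3 (-0.56). IRF9 was called higher in shARID1A.2 (1.06), shARID1B.2 (0.71) and shARID1A/B.4.2 (0.44) and lower in the other 3.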

How the data were processed

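Gene values deposited by the authors are a signal, estimated reads rounded to whole numbers and scaled by the size factor of their library. The submitters' processing notes name STAR 2.5.3a, RSEM 1.3.0, DESeq2 1.26.0 and GRCh38; the annotation release and strand setting are not given in the sources used here. Whole reads came back for 100% of values (tolerance 0.1 read, largest deviation 0.0296). The authors' 3 tables of comparisons with Control hold log2 fold changes and p-values and were not used.

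Conditions were taken from the labels, and no label was changed. Values were tested as log2(value + 1) with limma 3.58.1 (lmFit, eBayes with a trend) over the 7 condition means of all 21 libraries, in R 4.3.3. With filterByExpr of edgeR (minimum count 10), 18584 genes were kept, and Benjamini-Hochberg adjustment ran over all of them. Adding 1 understates changes of low genes. Alternatives were edgeR 4.0.16 (quasi-likelihood), DESeq2 1.42.0, other pseudocounts, filters and scalings, a fit of the conditions compared alone, a replicate block, and leaving out each library. The fit was also run on simulated counts with far fewer changed genes than were called here. That run cannot show how the fit behaves at the shares called in these data. Genes were matched to GENCODE release 29 by identifier without its version. Named genes are the members, ARID1A, ARID1B, 6 pathway lists, the markers, the 3 genes most like each member, and 2 genes that overlap members. The members and lists were chosen with earlier results of these data known. Results for some genes of the lists are not reported here.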

Additional observations from a re-analysis of the deposited data

Results flagged for a closer look

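In 8 cases a member was called in opposite directions against Control in the 2 conditions of 1 label, and the difference between those conditions was itself called. Of all genes tested, the same held for 17.1% under the shARID1A label, 14.5% under shARID1B and 18.5% under shARID1A/B, beside 3, 1 and 4 of the 9 members. Differences below are log2, first condition minus second, from limma over 3 libraries each, and in every case the 3 libraries of the first condition do not overlap those of the second.

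Between shARID1A.2 and shARID1A.4 the difference was -3.10 for NLRC5 (-1.75 and 1.34 against Control), -2.34 for TAP2 (-1.60 and 0.74) and -0.73 for HLA-C (-0.17 and 0.56; the first of these was 0.00 with libraries scaled to total reads, and its call was also lost with scaling to the upper quartile and without shARID1A.2 replicate 3). Between shARID1B.2 and shARID1B.3 it was 1.87 for TAP1 (0.70 and -1.17). Between shARID1A/B.2.3 and shARID1A/B.4.2 it was 3.25 for NLRC5 (1.75 and -1.51), 2.48 for TAP2 (0.89 and -1.59), 1.25 for TAPBP (0.60 and -0.64) and 1.10 for HLA-C (0.61 and -0.49). Between the conditions of each pair, in this order, ARID1B differed by -0.47, -0.28 and 0.45 on the log2 scale and ARID1A by -0.06, -0.37 and 0.06 (the last not called, adjusted p = 0.0782), and their part in these differences was not tested.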

How the results depend on the processing

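Of 41 calls of members against Control, 38 kept their direction and side of the threshold under every alternative run; the others were HLA-C in shARID1A.2, HLA-E in shARID1A/B.2.3 and TAP2 in shARID1B.3. Scaling to total reads moved the all-gene median from 0.02 to 0.19 in shARID1A.2, from 0.01 to 0.14 in shARID1B.2 and from 0.02 to 0.20 in shARID1A/B.4.2 against Control, and the share of called genes that were higher from 49.8% to 61.2%, from 48.1% to 63.0% and from 49.3% to 64.8%; between conditions of 1 label it moved that share from 50.7% to 60.8% (shARID1A), from 6129 of 12269 to 7590 of 12477 genes (shARID1B) and from 49.6% to 38.6% (shARID1A/B). Under it, 2 members passed the log2 fold change over 1 in shARID1B.2 in place of 1, NLRC5 in shARID1B.2 became 0.01 and HLA-C in shARID1A.2 became 0.00. Scaling to the upper quartile gave 0.00 for HLA-C in shARID1B.3 and -0.01 for NLRC5 between shARID1B.2 and shARID1B.3. In 6 fits that each left out 1 library, counts of members called ranged from 7 to 8 in shARID1A.2, 5 to 6 in shARID1A.4, 3 to 4 in shARID1B.3 and 6 to 8 in shARID1A/B.2.3 and did not move in the rest; members past a log2 fold change over 1 in shARID1B.3 ranged from 0 to 1, the 0 without replicate 2 of shARID1B.3, and NLRC5 between shARID1B.2 and shARID1B.3 from -0.01 to 0.08. The cause of these moves was not tested.

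Libraries with the same replicate number showed little shared deviation (18 pairs with Control, r from -0.157 to 0.063). Between silenced conditions r ran from -0.196 to 0.143. These values cannot show whether the samples were paired when they were made. With the replicate number as a block the members called stayed at 8, 5, 8, 4, 7 and 9 in the order of the conditions above. All genes called in shARID1A.2 were then 14136 in place of 14142. Depth limits HLA-B, TAP1 and PSMB8 most, whose lowest libraries held 32.4, 21.9 and 14.7 normalised reads.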

Other observations

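Class II genes, which present outside antigens and are normally kept to immune cells, were read beside class I. Of 6, HLA-DRA, HLA-DRB1 and CD74 were too low to test. HLA-DPB1 was at 338 (mean, n = 3) in Control and at 155 in shARID1A.2 (log2 fold change -1.12) and 152 in shARID1A/B.4.2 (-1.15), and was not called in the other 4 conditions. HLA-DMA, a class II loading gene, went the other way, from 19.9 in Control to 79.7 in shARID1A.2 (1.96) and 52.6 in shARID1A/B.4.2 (1.37). HLA-DPA1, the partner chain of HLA-DPB1, was at 44 in Control, was called higher in shARID1A.2, at 84.4 (0.95), and in shARID1B.2, at 76.4 (0.81), and lower in shARID1A/B.2.3, at 25.5 (-0.75). HLA-DMA was also called higher in shARID1B.2, at 31.5 (0.64).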
